A study of Homo sapiens with 9 samples.

Results

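Interferon-stimulated genes are the genes that cells switch on when they receive an interferon signal. The 39 genes described here were chosen by name from the 58735 genes of the expression table, and all 39 names were found. They were followed in GBM43, a glioblastoma cell line, grown in 3-dimensional devices filled with a hyaluronic acid gel into which the cells invade. The series addresses the part of glutamate, acting through NMDA receptors, in that invasion. There were 9 RNA sequencing libraries in 3 groups of 3. MK801 devices had received 50 µM MK801, a channel blocker of NMDA-type glutamate receptors, and each library held invaded and remaining cells together because too few had invaded to be cut apart. Invasive libraries came from the cells that had left the core of control devices, separated with a scalpel. Core libraries came from the cells that had stayed behind in control devices. The treatment protocol gives the vehicle DMSO as what control devices received, whereas the design text names culture medium. All 3 groups were the same line in the same kind of gel, the medium contained fetal bovine serum, and the labels name no interferon treatment. An MK801 library therefore differs from either control fraction in its makeup as well as in treatment, and the 2 cannot be told apart. Whether the replicates of a group were separate cultures is not stated in the labels, and p-values then describe just the scatter among these 9 libraries, part of which may be technical.

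Type I interferons bind the receptor IFNAR1/IFNAR2, whose kinases TYK2 and JAK1 phosphorylate STAT factors, STAT2 among them. With IRF9 these form a complex that binds the interferon-stimulated response element, a short DNA element in the promoters of many of these genes. Interferon gamma acts through a different element, the gamma-activated site. The products block virus entry, sense or destroy foreign RNA, attach the small protein ISG15 to other proteins, and feed back on the signal itself, and many tumours express some of them with no infection.

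Levels are given as FPKM (fragments per kilobase of gene per 1e6 fragments), the values the authors deposited. The authors' divisor, recovered from the values, was not the plain total of a library's fragments in genes. It was 0.769 times that total in MK801 replicate 1 and 0.788 times in invasive replicate 2. In MK801 replicate 3 it was 1.19 times and in core replicate 3 1.23 times. The median ratio of a library's FPKM values to the geometric average library was 0.983 to 1.03. A gene was tested where it reached 1 FPKM in at least 3 of the 9 libraries, which held for 11845 genes and for 29 of the 39 members. Differences are differences in log2(FPKM + 1), a scale on which changes of low genes look smaller than they are. A gene is called where limma, fitted to all 9 libraries, gave an adjusted p under 0.05 over all tested genes. The libraries held 15.6 to 54.4 M fragments in genes (M for 1e6), and the largest was MK801 replicate 3. At equal depth 15161 to 21506 genes were detected in MK801 libraries, 15964 to 19129 in invasive libraries and 20329 to 21419 in core libraries. The mean GC content of the sequenced genes was 49.7 to 53.6% in MK801 libraries, 51.9 to 53.7% in invasive libraries and 49.0 to 50.3% in core libraries. Libraries with fewer genes detected tended to have the higher GC content, and MK801 replicate 3 lay near the core libraries while MK801 replicate 1 lay near the invasive ones. Differences are therefore also given after each library's trend over gene GC content had been removed.

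Members were expressed over a wide range, led by the IFITM proteins, and 14 of the 39 reached 1 FPKM in all 9 libraries. Their FPKM values summed to 1139, 543 and 329.8 in MK801 replicates 1, 2 and 3, to 623, 1109 and 661 in the invasive libraries, and to 434, 482 and 449 in the core libraries. IFITM3 alone made up 36.8 to 66.1% of these sums. Without the 3 IFITM genes the sums were 211, 122 and 145 in MK801 libraries, 162, 160.5 and 229 in invasive libraries and 172, 194 and 232 in core libraries, and the groups overlapped. The sum therefore mostly followed IFITM3 and not the set as a whole. XAF1, which promotes cell death, had 0 fragments in all 9 libraries, which allows up to 0.0320 FPKM, and this limit covers counting error only. MX1 and MX2, the virus-restricting GTPases, IFI27, IRF9 and TRIM22 stayed under 1 FPKM in every library.

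**Figure D1:**
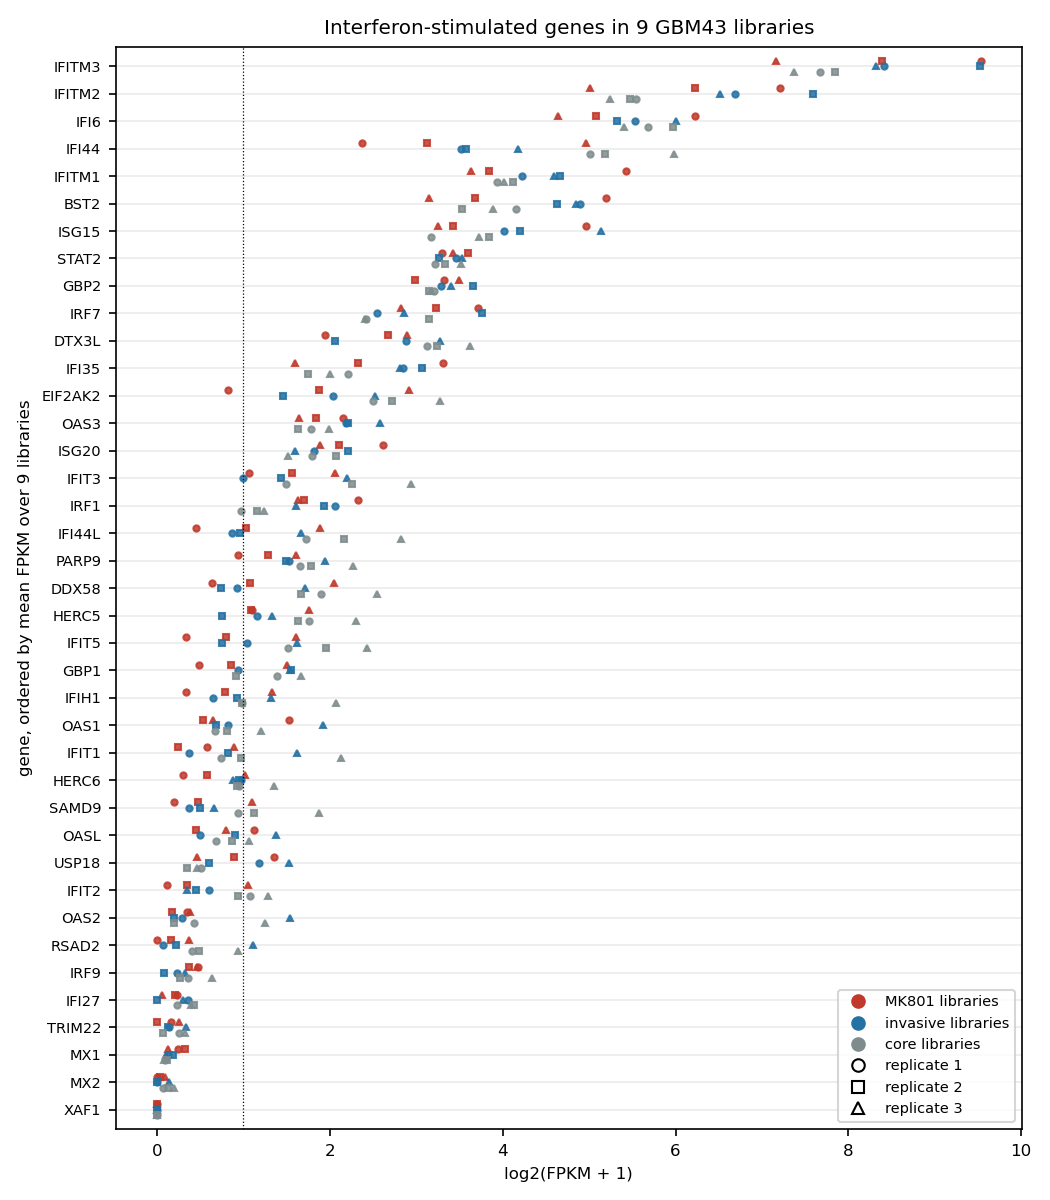
Level of each member in each library as log2(FPKM + 1), with members down the page, MK801, invasive and core libraries in different colours and replicates in different symbols. IFITM3 lies at 142 to 739.5 FPKM at one end and XAF1 at 0 in all 9 libraries at the other.

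The sequence just upstream of the start is shown for the 3 members with the highest mean level among those holding the interferon response letters, because that element is what the set is known to share. The letters searched were GAAA, any 2 bases and GAAA again, for the interferon response element. Searched on both strands of the window from 250 bases before to 50 bases after the start, they were present in 20 of the 30 members with a RefSeq promoter (66.7%). Among all 35116 RefSeq promoters of the same length they were present in 3.57%. The gamma-activated letters TTCNNNGAA were present in 7 of the 30 members (23.3%) and in 7.66% of all promoters, and 3 members held both. The 250 bases before the start are printed 5′ to 3′ on the strand of the gene, in the build GRCh38.p14, with each match in capitals. They are IFITM3 at chr11:320861-321110 on the minus strand, IFI6 at chr1:27672193-27672442 on the minus strand and IFI44 at chr1:78649539-78649788 on the plus strand, where the match is on the other strand.
IFITM3: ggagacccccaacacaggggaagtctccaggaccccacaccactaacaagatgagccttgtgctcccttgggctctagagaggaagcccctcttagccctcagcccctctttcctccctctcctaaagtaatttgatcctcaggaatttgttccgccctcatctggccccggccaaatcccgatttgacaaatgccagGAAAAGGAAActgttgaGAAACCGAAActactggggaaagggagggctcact
IFI6: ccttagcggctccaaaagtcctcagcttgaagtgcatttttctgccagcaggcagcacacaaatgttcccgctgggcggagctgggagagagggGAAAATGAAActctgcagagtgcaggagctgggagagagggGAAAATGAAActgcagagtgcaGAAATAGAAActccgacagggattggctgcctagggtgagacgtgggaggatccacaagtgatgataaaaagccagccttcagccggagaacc
IFI44: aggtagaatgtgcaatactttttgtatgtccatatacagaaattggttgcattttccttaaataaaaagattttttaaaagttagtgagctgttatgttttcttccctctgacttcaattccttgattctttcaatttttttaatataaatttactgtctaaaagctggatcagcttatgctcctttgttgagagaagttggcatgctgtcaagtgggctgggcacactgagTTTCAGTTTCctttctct
IFITM3 and IFI44 both carry the letters, yet between invasive and core libraries their levels differed in opposite directions. A match describes the letters and not the binding of a factor. No RefSeq promoter was matched for IFIT2, IFITM2, MX2, OAS2, OASL, IRF7, USP18, GBP2 and TRIM22.

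The membrane proteins, which act at the cell surface or in endosomes to hold back virus entry or release, were the most abundant members. IFITM3, which blocks virus fusion in endosomes, had 739.5, 334 and 142 FPKM in MK801 replicates 1, 2 and 3, 341, 733 and 318.5 FPKM in invasive libraries, and 202, 228 and 165 FPKM in core libraries. Every invasive library was above every core library, while the MK801 libraries reached above and below both. Its paralog IFITM2 had 147, 73.7 and 31.4 FPKM in MK801 libraries, 102, 191 and 90.5 FPKM in invasive libraries, and 45.6, 43.4 and 36.9 FPKM in core libraries. IFITM1, which acts mainly at the cell surface, had 41.9, 13.3 and 11.4 FPKM in MK801 libraries, 17.8, 24.3 and 23.2 FPKM in invasive libraries, and 14.3, 16.3 and 15.2 FPKM in core libraries. BST2 (tetherin), which ties budding viruses to the cell, had 35.7, 11.8 and 7.88 FPKM in MK801 libraries, 28.7, 23.7 and 27.8 FPKM in invasive libraries, and 16.8, 10.5 and 13.8 FPKM in core libraries. In deposited FPKM, MK801 replicate 1 was the highest MK801 library and replicate 3 the lowest in all 4 genes. The invasive and core libraries did not overlap in FPKM for any of the 4. For IFITM1 and BST2 this separation did not hold when fragments were divided by the plain total in genes. IFITM1 had 321 of 16.7 M fragments in invasive replicate 1 and 370 of 18.3 M in core replicate 3. BST2 had 478 of 22.8 M in invasive replicate 2 and 522 of 23.7 M in core replicate 1. Scaling FPKM by median of ratios moved the invasive minus core difference little, from 0.47 to 0.45 for IFITM1 and from 0.93 to 0.91 for BST2. IFITM1, IFITM2 and IFITM3 are related neighbours on chromosome 11, and IFITM1 lies within the annotated range of IFITM2. How reads shared between them were counted is not given in the sources used here, so their separate levels are uncertain.

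The ISG15 system showed the same order in its leading gene. ISG15, the ubiquitin-like protein that is attached to other proteins, had 30.3, 9.78 and 8.56 FPKM in MK801 libraries, 15.2, 17.4 and 34.1 FPKM in invasive libraries, and 8.02, 13.4 and 12.2 FPKM in core libraries. USP18, which removes ISG15 and dampens the interferon receptor, had 1.56, 0.852 and 0.383 FPKM in MK801 libraries, 1.26, 0.522 and 1.88 FPKM in invasive libraries, and 0.422, 0.274 and 0.375 FPKM in core libraries. HERC5, the ligase that attaches ISG15, had the reverse order, with 1.14, 1.13 and 2.38 FPKM in MK801 libraries, 1.23, 0.688 and 1.51 FPKM in invasive libraries, and 2.38, 2.09 and 3.92 FPKM in core libraries. The related HERC6 averaged 0.586 ± 0.409 FPKM in MK801 libraries, 0.909 ± 0.0627 FPKM in invasive libraries and 1.13 ± 0.362 FPKM in core libraries (SD, n = 3 each).

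The IFI genes of chromosome 1 separated by gene. IFI6, a mitochondrial protein that limits cell death, had 73.7, 32.9 and 23.9 FPKM in MK801 libraries, 45.2, 38.9 and 63.5 FPKM in invasive libraries, and 50.5, 61.5 and 41.2 FPKM in core libraries, and its groups overlapped. IFI44 had 4.16, 7.76 and 30.3 FPKM in MK801 libraries, 10.4, 10.9 and 17.0 FPKM in invasive libraries, and 31.3, 35.4 and 62.3 FPKM in core libraries. Its neighbour IFI44L had 0.373, 1.05 and 2.71 FPKM in MK801 libraries, 0.828, 0.944 and 2.17 FPKM in invasive libraries, and 2.30, 3.48 and 6.10 FPKM in core libraries. Every core library was above every invasive library for both neighbours, and the highest MK801 library, replicate 3, came close to or passed the lowest core library. IFI35, a protein that partners with NMI, had 8.95, 4.005 and 2.04 FPKM in MK801 libraries, 6.18, 7.40 and 6.02 FPKM in invasive libraries, and 3.62, 2.36 and 2.99 FPKM in core libraries.

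The RNA sensors and the kinase EIF2AK2 were low, and each had its highest group mean in core libraries. DDX58 (RIG-I), a cytoplasmic sensor of viral RNA, had 0.552, 1.12 and 3.13 FPKM in MK801 libraries, 0.906, 0.676 and 2.28 FPKM in invasive libraries, and 2.74, 2.18 and 4.85 FPKM in core libraries. IFIH1 (MDA5), which senses long double-stranded RNA, averaged 0.832 ± 0.632 FPKM in MK801 libraries, 0.989 ± 0.465 FPKM in invasive libraries and 1.72 ± 1.28 FPKM in core libraries (SD, n = 3 each). EIF2AK2 (PKR), the kinase that halts translation on double-stranded RNA, had 0.769, 2.67 and 6.55 FPKM in MK801 libraries, 3.09, 1.75 and 4.74 FPKM in invasive libraries, and 4.68, 5.61 and 8.67 FPKM in core libraries. For DDX58 and EIF2AK2 the invasive and core libraries overlapped, and the 3 MK801 libraries spanned more than the invasive ones. EIF2AK2 overlaps GPATCH11 on the opposite strand, which reached 5.05 FPKM. Strand use in counting is not given in the sources used here, so the level of EIF2AK2 is uncertain.

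The IFIT proteins, some of which bind viral RNA ends, are encoded side by side on chromosome 10, and all 4 had their highest group mean in core libraries. IFIT3 had 1.10, 1.96 and 3.16 FPKM in MK801 libraries, 0.995, 1.70 and 3.60 FPKM in invasive libraries, and 1.81, 3.79 and 6.66 FPKM in core libraries. IFIT5 had 0.264, 0.742 and 2.06 FPKM in MK801 libraries, 1.06, 0.692 and 2.08 FPKM in invasive libraries, and 1.86, 2.87 and 4.38 FPKM in core libraries. IFIT1, not tested because it was low, had 0.490, 0.182 and 0.860 FPKM in MK801 libraries, 0.298, 0.771 and 2.07 FPKM in invasive libraries, and 0.678, 0.959 and 3.38 FPKM in core libraries. Replicate 3 was the highest library of each group for all 3 of these genes. IFIT2 averaged 0.478 ± 0.529 FPKM in MK801 libraries, 0.386 ± 0.129 FPKM in invasive libraries and 1.16 ± 0.262 FPKM in core libraries (SD, n = 3 each). IFIT1, IFIT2 and IFIT3 overlap LIPA on the opposite strand, which reached 15.6 FPKM, and strand use in counting is not given in the sources used here, so their low levels are uncertain.

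The OAS enzymes, which make the signal that activates the RNA-cutting RNase L, were led by OAS3. It had 3.45, 2.59 and 2.12 FPKM in MK801 libraries, 3.56, 3.64 and 4.99 FPKM in invasive libraries, and 2.44, 2.09 and 2.97 FPKM in core libraries. In deposited FPKM every invasive library was above every library of both other groups, by a narrow margin over MK801 replicate 1. The order over core did not hold when fragments were divided by the plain total in genes. OAS3 had 541 of 22.8 M fragments in invasive replicate 2 and 553 of 18.3 M in core replicate 3. Scaling FPKM by median of ratios moved its invasive minus core difference little, from 0.53 to 0.51. OAS1 averaged 0.968 ± 0.797 FPKM in MK801 libraries, 1.38 ± 1.21 FPKM in invasive libraries and 0.884 ± 0.378 FPKM in core libraries (SD, n = 3 each). OAS2 had 0.271, 0.124 and 0.2996 FPKM in MK801 libraries, 0.219, 0.151 and 1.90 FPKM in invasive libraries, and 0.350, 0.149 and 1.38 FPKM in core libraries, so that 1 library of each control fraction held most of its signal. OASL, a relative without that enzyme activity, averaged 0.766 ± 0.409 FPKM in MK801 libraries, 0.957 ± 0.599 FPKM in invasive libraries and 0.838 ± 0.241 FPKM in core libraries (SD, n = 3 each). ISG20, an RNA exonuclease, had 5.13, 3.32 and 2.68 FPKM in MK801 libraries, 2.52, 3.61 and 2.03 FPKM in invasive libraries, and 2.46, 3.20 and 1.86 FPKM in core libraries. RSAD2 (viperin), which makes a chain-ending nucleotide, had 0, 0.121 and 0.293 FPKM in MK801 libraries, 0.0494, 0.161 and 1.16 FPKM in invasive libraries, and 0.320, 0.398 and 0.909 FPKM in core libraries.

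Of the transcription factors, STAT2 varied little. It averaged 9.91 ± 1.18 FPKM in MK801 libraries, 9.70 ± 1.01 FPKM in invasive libraries and 9.25 ± 1.08 FPKM in core libraries (SD, n = 3 each), which differ by less than the spread within a group. IRF7, the main amplifier of type I interferon production, averaged 8.86 ± 3.08 FPKM in MK801 libraries, 7.87 ± 4.10 FPKM in invasive libraries and 5.52 ± 2.05 FPKM in core libraries. IRF1, a factor induced by interferon gamma and by NF-kB, had 4.02, 2.25 and 2.09 FPKM in MK801 libraries, 3.19, 2.82 and 2.05 FPKM in invasive libraries, and 0.958, 1.24 and 1.36 FPKM in core libraries. It lay above every core library in all 6 other libraries. PARP9 and its partner DTX3L, an ADP-ribosylation and ubiquitin-ligase pair encoded head to head on chromosome 3, were highest in core libraries. PARP9 had 0.917, 1.44 and 2.05 FPKM in MK801 libraries, 1.88, 1.82 and 2.86 FPKM in invasive libraries, and 2.15, 2.44 and 3.82 FPKM in core libraries. DTX3L had 2.84, 5.38 and 6.46 FPKM in MK801 libraries, 6.37, 3.18 and 8.66 FPKM in invasive libraries, and 7.74, 8.48 and 11.3 FPKM in core libraries. All MK801 libraries were below all core libraries for both, by a narrow margin for PARP9, and the 2 genes overlap on opposite strands.

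The remaining effectors were few. GBP2, a guanylate-binding GTPase that attacks enclosed pathogens, averaged 8.72 ± 1.69 FPKM in MK801 libraries, 9.97 ± 1.46 FPKM in invasive libraries and 8.03 ± 0.158 FPKM in core libraries (SD, n = 3 each). GBP1 averaged 1.02 ± 0.749 FPKM in MK801 libraries, 1.58 ± 0.572 FPKM in invasive libraries and 1.56 ± 0.651 FPKM in core libraries. SAMD9, an antiviral factor, averaged 0.559 ± 0.522 FPKM in MK801 libraries, 0.431 ± 0.145 FPKM in invasive libraries and 1.58 ± 0.941 FPKM in core libraries. Of these, the invasive and core libraries did not overlap in deposited FPKM for GBP2 and SAMD9.

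**Figure D2:**
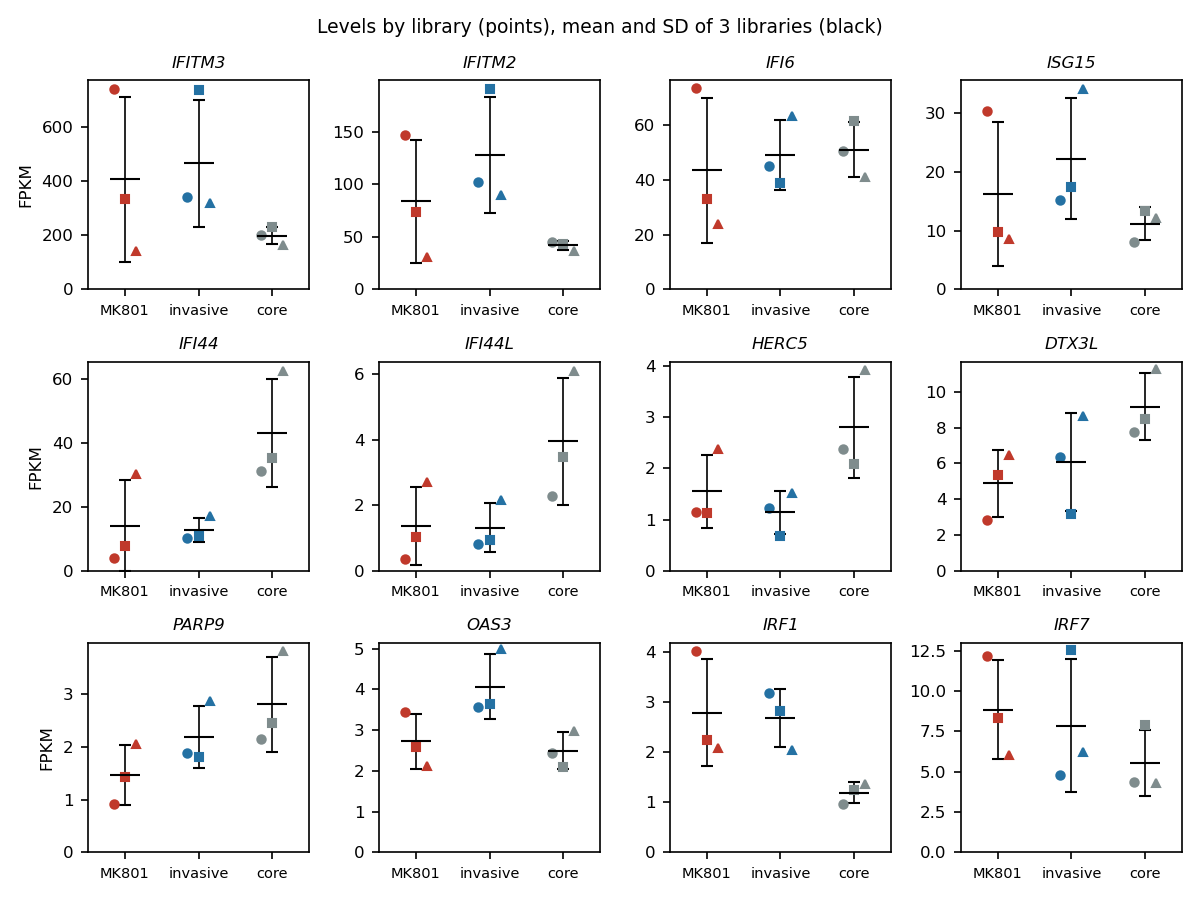
FPKM of selected members in each library, with MK801 left of invasive left of core; points are libraries with a symbol for each replicate, and bars the mean and SD of 3. IFITM3 averaged 405 FPKM in MK801, 464 in invasive and 198.5 in core libraries, whereas IFI44 averaged 14.1, 12.8 and 43.0 FPKM in the same order.

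The invasive and core fractions differed in both directions across the members, with IFITM genes, BST2, ISG15, IFI35, OAS3 and IRF1 higher in invasive libraries and IFI44, IFI44L, HERC5, IFIT2 and SAMD9 lower. IFITM2 averaged 128 ± 55.1 FPKM in invasive and 42.0 ± 4.56 FPKM in core libraries, and IFI44 averaged 12.8 ± 3.69 FPKM in invasive and 43.0 ± 16.8 FPKM in core libraries (SD, n = 3 each). In the fit of all 9 libraries limma called 0 of the 29 tested members and 0 of 11845 genes (0.0%). Before adjustment 12 members (41.4%) and 4461 genes (37.7%) had a limma p under 0.05. With limma-voom, run on fragments recovered from FPKM, 0 members and 0 genes were called. In deposited FPKM the 2 groups did not overlap for 15 members (51.7%), against 64.8% of all tested genes. Of these, 10 were higher in invasive libraries (34.5%, against 32.0% of all genes) and 5 were lower (17.2%, against 32.8%). For some of the 10, ISG15 and GBP2 among them, the separation did not hold when fragments were divided by the plain total in genes. ISG15 had 295 of 22.8 M fragments in invasive replicate 2 and 259 of 18.3 M in core replicate 3. Scaling FPKM by median of ratios moved the difference little, from 0.87 to 0.85 for ISG15 and from 0.27 to 0.25 for GBP2. In a fit of the 6 control libraries alone, whose spread does not include the MK801 libraries, 16 members were called (55.2%), against 52.2% of all tested genes. In that fit BST2, IFI35, IFITM1, IFITM2, IFITM3, IRF1, ISG15 and OAS3 rose in invasive libraries (27.6% of members, against 26.3% of genes), and DDX58, EIF2AK2, HERC5, IFI44, IFI44L, IFIT2, IFIT5 and SAMD9 fell (27.6%, against 25.9%). Leaving 1 MK801 library out of the 9-library fit gave 13 members called without replicate 3 (44.8%, against 41.3% of genes), 11 without replicate 1 (37.9%, against 39.5%) and 0 without replicate 2. The share of members was close to that of all genes, so these calls do not set the interferon-stimulated genes apart. Core and invasive libraries of the same replicate number share a code in their column names, and the labels do not say whether that code stands for 1 device from which both fractions were cut. With the replicate number as a block in the fit of 9 libraries, 8 members were called (27.6%, against 21.3% of genes). IFITM2 was the higher one in invasive libraries (3.45%, against 11.7% of genes), and DDX58, HERC5, IFI44, IFI44L, IFIT3, IFIT5 and SAMD9 were lower (24.1%, against 9.64%). This block called 0 members once the GC trend was also removed. With the block in the 6 control libraries alone, 20 members were called (69.0%, against 60.2% of genes), 10 of them higher (34.5%, against 30.7%) and 10 lower (34.5%, against 29.5%). With the GC trend removed in that fit, 6 members were called (20.7%, against 22.9%), with BST2, GBP2, IFITM2 and IFITM3 higher (13.8%, against 12.9%) and IFI44 and IRF7 lower (6.9%, against 10.0%). IRF7 had been among the 10 higher ones before GC removal, at 0.39, and was then at -0.38. The median difference was 0.05 over the members and -0.02 over all tested genes.

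The members with the smallest p were IFITM2, IRF1, IFI44, HERC5 and IFI44L. IFITM2 (chr11:307631-315272) was 1.51 higher in invasive libraries (SE 0.487, limma adjusted p 0.106; 0.00440 in the 6 control libraries alone), and the difference was 1.05 after the GC trend had been removed. IRF1 (chr5:132481609-132490798) was 0.74 higher (SE 0.243, adjusted p 0.106; 0.0108 alone), and 0.46 higher with the GC trend removed. IFI44 (chr1:78649796-78664078) differed by -1.64 (SE 0.557, adjusted p 0.106; 0.00407 alone), and by -0.98 with the GC trend removed. HERC5 (chr4:88457117-88506163) differed by -0.81 (SE 0.278, adjusted p 0.106; 0.0180 alone) and by -0.47 with the GC trend removed. IFI44L (chr1:78619922-78646145) differed by -1.07 (SE 0.401, adjusted p 0.110; 0.0178 alone) and by -0.37 with the GC trend removed. For each of these genes the direction held, with smaller size. With the control libraries fitted alone and the GC trend removed, 3 members were called (10.3%), against 19.2% of all tested genes. These were IFITM2 and GBP2, higher in invasive libraries with adjusted p of 0.0163 and 0.0314 (6.9% of members, against 10.6% of genes), and IFI44, lower with an adjusted p of 0.0165 (3.45%, against 8.68%).

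**Figure D3:**
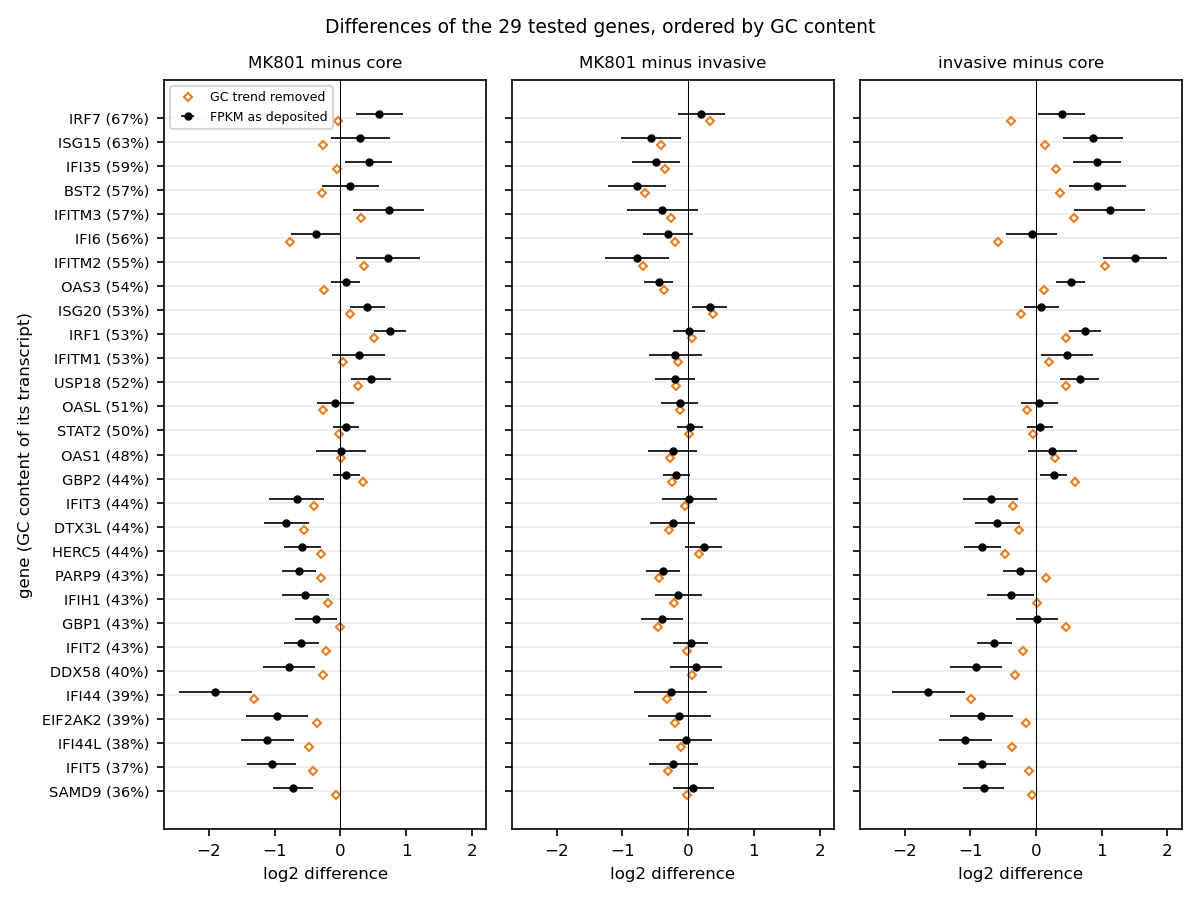
Difference of each tested member in log2(FPKM + 1) with its SE, for MK801 minus core, MK801 minus invasive and invasive minus core from left to right; open diamonds are the differences with the GC trend removed and members run down the page from high to low GC content. IFITM2 at 1.51 and IFI44 at -1.64 mark the ends of the invasive minus core panel, and the members lie nearer 0 in the MK801 minus invasive panel.

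Between MK801 and core libraries the members of smallest p were IFI44, which averaged 14.1 ± 14.2 FPKM in MK801 and 43.0 ± 16.8 FPKM in core libraries, and IRF1, which averaged 2.79 ± 1.07 FPKM in MK801 and 1.19 ± 0.208 FPKM in core libraries (SD, n = 3 each). Limma called 0 of 29 members and 0 genes (0.0%). Before adjustment 7 members (24.1%) and 2509 genes (21.2%) had a p under 0.05, and with limma-voom 0 members and 0 genes were called. The groups did not overlap for 4 members (13.8%), against 18.7% of all tested genes. IRF1 was the 1 that was higher in MK801 libraries (3.45%, against 9.89% of genes), and IFI44, PARP9 and DTX3L were lower (10.3%, against 8.82%). With the GC trend removed the groups did not overlap for 8 members (27.6%, against 16.9% of genes), with GBP2 and IRF1 higher (6.9%, against 8.28%) and DTX3L, IFI44, IFI44L, IFI6, IFIT5 and PARP9 lower (20.7%, against 8.61%). IFI44 differed by -1.91 (SE 0.557, adjusted p 0.235), and by -1.31 with the GC trend removed. IRF1 was 0.76 higher (SE 0.243, adjusted p 0.235), and 0.52 higher with the GC trend removed. PARP9 (chr3:122527924-122564577) differed by -0.62 (SE 0.259, adjusted p 0.235), and by -0.29 with the GC trend removed. The median difference was -0.08 over the members and 0.00 over all tested genes, and with the GC trend removed it was -0.22 over the members and 0.01 over all genes. With the GC trend removed 21 of 29 members were lower (72.4%, against 48.8% of all tested genes).

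The count of calls against core depended on MK801 replicate 3. Without it, 14 members were called against core (48.3%), as were 50.2% of all tested genes. IFI35, IFITM2, IFITM3 and IRF1 were then higher in MK801 libraries (13.8% of members, against 25.2% of genes), and DDX58, DTX3L, EIF2AK2, HERC5, IFI44, IFI44L, IFIT2, IFIT5, PARP9 and SAMD9 were lower (34.5%, against 24.9%). In MK801 replicates 1 and 2 IFI44 had 4.16 and 7.76 FPKM and in replicate 3 it had 30.3 FPKM, against 31.3 FPKM in the lowest core library. MK801 replicate 3 was also the library with the most fragments, the most genes detected and the lowest GC content of its group, and the part of these in the result was not tested.

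In deposited FPKM, MK801 and invasive libraries overlapped for every tested member except OAS3. Limma called 0 of 29 members and 0 genes (0.0%). Before adjustment 0 members and 978 genes (8.26%) had a p under 0.05, and with limma-voom the counts of called members and genes were also 0. OAS3 (chr12:112938352-112973249) was the 1 member whose groups did not overlap (3.45%, against 10.8% of all tested genes, of which 5.63% were lower like OAS3). It averaged 2.72 ± 0.674 FPKM in MK801 and 4.06 ± 0.803 FPKM in invasive libraries (SD, n = 3 each), a difference of -0.45 (SE 0.220, adjusted p 0.676), or -0.37 with the GC trend removed. With the GC trend removed the groups did not overlap for 4 members (13.8%, against 17.9% of genes), with ISG20 higher in MK801 libraries (3.45%, against 8.7%) and IFIT5, OAS3 and PARP9 lower (10.3%, against 9.19%). All 4 membrane proteins had a log2 difference below 0, although IFITM1 averaged 22.2 ± 17.1 FPKM in MK801 and 21.8 ± 3.52 FPKM in invasive libraries, well within its spread. Over the members 20 of 29 differences were below 0 (69.0%, against 50.2% of all tested genes). Their median was -0.20, against 0.00 over all tested genes. No member had all 3 MK801 libraries above or all 3 below the 6 control libraries, whereas 1.48% of tested genes lay above and 0.971% below. The 3 comparisons share libraries and are not independent of each other.

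In the 2 comparisons with core libraries, whether a member was higher or lower mostly followed the GC content of its transcript. Of the 14 tested members above the median GC of tested genes (48.4%), 13 were higher in invasive than in core libraries, and of the 15 below it 12 were lower. For MK801 against core the counts were 12 of 14 higher and 13 of 15 lower. The rank correlation of the invasive minus core difference with GC was 0.87 over the 29 members and 0.76 over all tested genes, and that of the MK801 minus core difference was 0.86 and 0.77. These describe genes that share the same libraries, and the 2 differences share the core libraries. For MK801 against invasive libraries 10 of the 14 GC-rich members were lower in MK801 libraries, as were 10 of the 15 GC-poor ones. The rank correlation of that difference with GC was -0.37 over the members and -0.25 over all tested genes. The GC-rich members include ISG15 (63.4%), IFI35 (58.8%), BST2 (57.3%) and IFITM3 (56.9%), and the GC-poor ones SAMD9 (36.05%), IFIT5 (37.4%), IFI44L (37.8%), EIF2AK2 (38.7%) and IFI44 (39.1%). The correlation over members was 0.34 for invasive minus core after the GC trend had been removed, and the groups then did not overlap for 7 members (24.1%), against 43.6% of all tested genes. IFI35, IFITM2, IFITM3, IRF1 and GBP2 were the higher ones (17.2%, against 22.4% of genes) and IFI44 and HERC5 the lower ones (6.9%, against 21.1%).

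**Figure D4:**
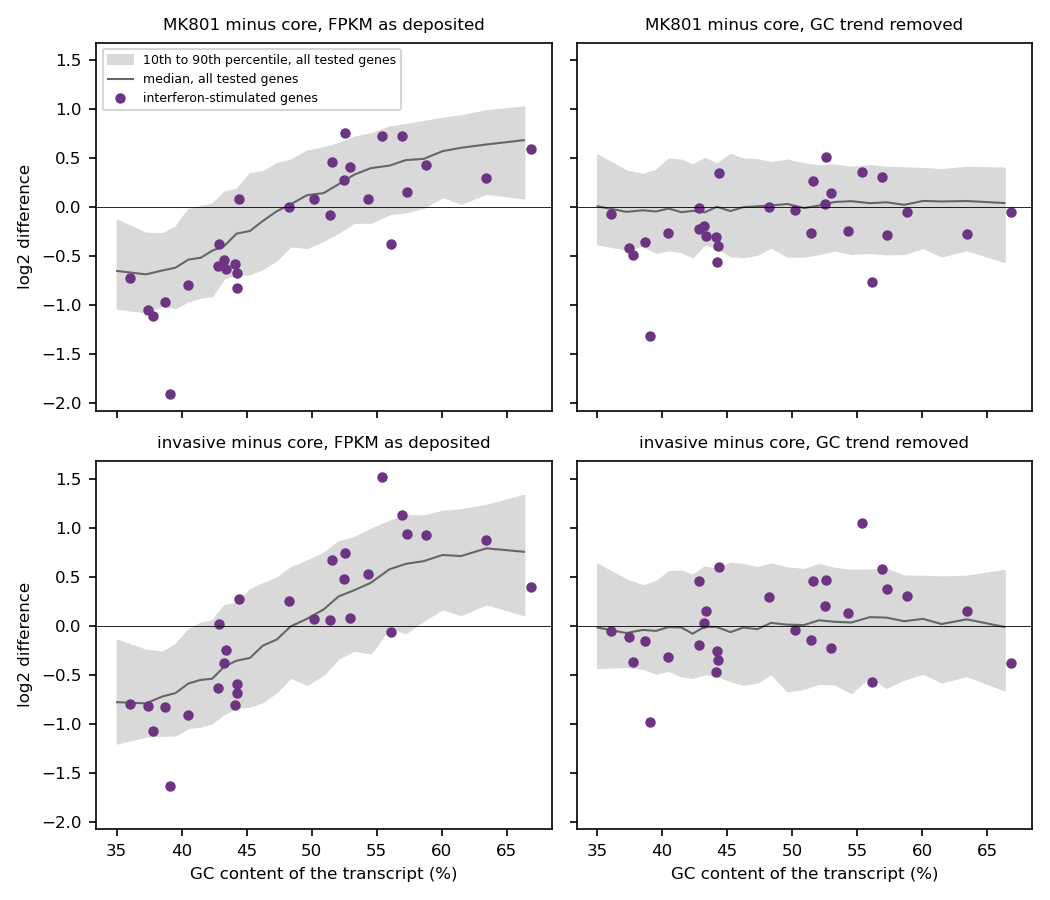
Difference in log2(FPKM + 1) against the GC content of each gene's transcript in percent, for MK801 minus core in the upper and invasive minus core in the lower row, as deposited at left and with the GC trend removed at right. Points are the 29 members, the line is the median and the band the 10th to 90th percentile of all tested genes, and the members slope upward with rank correlations of 0.86 and 0.87 at left.

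Within the control fractions many members were highest in replicate 3. It was the highest of the 3 invasive libraries for 18 of 29 members (62.1%), against 35.0% of all tested genes, and the highest of the 3 core libraries for 18 of 29 (62.1%), against 36.5%. With the GC trend removed, these counts were 20 of 29 in invasive libraries (69.0%, against 30.5% of all genes) and 21 of 29 in core libraries (72.4%, against 30.8%). For 15 members (51.7%) replicate 3 was the highest in both control fractions, against 22.6% of all genes, and for 17 (58.6%, against 12.7%) once the GC trend had been removed. Among MK801 libraries replicate 1 was the highest for 14 members (48.3%, against 41.1% of all genes), replicate 2 for 1 (3.45%, against 16.2%) and replicate 3 for 14 (48.3%, against 42.7%). With the GC trend removed the MK801 counts were 14 (48.3%, against 42.9%), 3 (10.3%, against 20.1%) and 12 (41.4%, against 36.9%). Replicate 3 was the highest in all 3 groups for 11 members (37.9%, against 20.1% of all genes). That count was 9 (31.0%, against 8.24%) with the GC trend removed. IFI44 was among the members highest in replicate 3 of every group. OAS2, IFIT1 and RSAD2 were also highest there, but were not tested and lie outside these counts. OAS2 had 1.90 FPKM in invasive replicate 3 against at most 0.219 FPKM in the other invasive libraries. The median SD of a member within a group was 0.50 in MK801 libraries, 0.35 in invasive libraries and 0.28 in core libraries on the log2 scale, against 0.49, 0.24 and 0.18 over all tested genes in the same order. The members thus varied more than the typical gene between libraries of a control fraction.

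**Figure D5:**
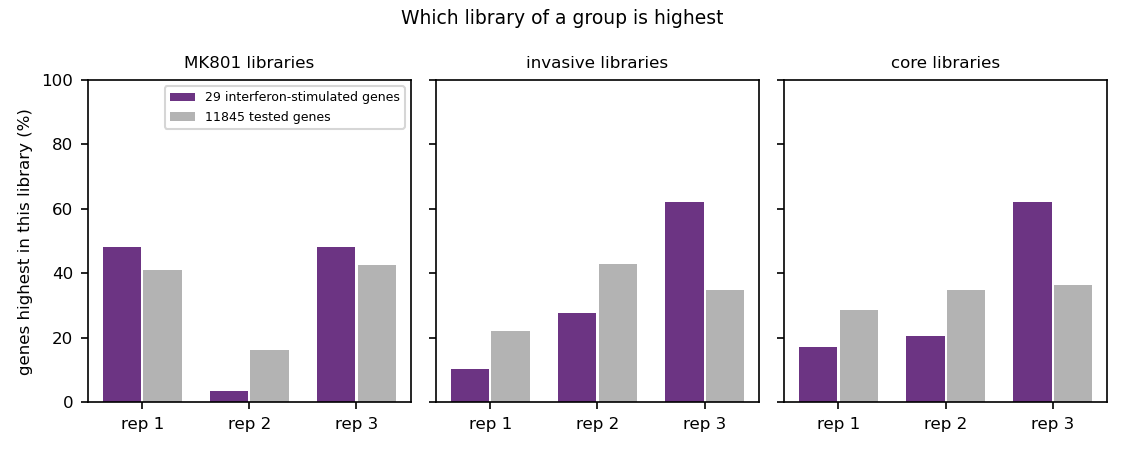
Share of genes, in percent, for which each replicate was the highest library of its group, for the 29 tested members and for all tested genes, with MK801, invasive and core panels. Replicate 3 was the highest for 62.1% of members in both invasive and core libraries.

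The signal upstream of these genes was looked for in lists of ligands, receptors, sensors and brakes. Of 21 interferon genes 18 had 0 fragments in all 9 libraries, IFNB1 among them, and IFNE was the 1 that reached 1 FPKM. IFNE, an interferon of epithelia, had 0, 0.790 and 0.500 FPKM in MK801 libraries, 0.202, 1.32 and 0.0679 FPKM in invasive libraries, and 0.682, 0.829 and 2.11 FPKM in core libraries. None of the ligands was tested. The receptor subunits differed in level, with IFNAR1 at 6.33 ± 1.09 FPKM in invasive and 11.7 ± 0.883 FPKM in core libraries (SD, n = 3 each), a difference of -0.80 (SE 0.272, adjusted p 0.106; 0.00542 alone), or -0.33 with the GC trend removed. IFNAR2, its partner, stayed under 1 FPKM in all libraries. TYK2 averaged 22.0 ± 1.64 FPKM in invasive and 13.0 ± 0.587 FPKM in core libraries, and its difference of 0.71 was 0.02 with the GC trend removed. STAT3, the factor of interleukin-6 signalling, averaged 24.1 ± 4.53 FPKM in MK801 and 28.4 ± 2.20 FPKM in invasive libraries. Of the 8 receptors, kinases and STAT factors tested, limma called none in any comparison, and in the 6 control libraries alone 2 rose and 3 fell in invasive libraries, against 52.2% of all tested genes called there. Once the GC trend was also removed, 0 of the 8 were called, against 19.2% of all tested genes.

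Among the sensors and adaptors, 0 of 10 tested genes were called, and in the 6 control libraries alone 4 rose and 2 fell in invasive libraries, against 52.2% of all tested genes called there. After GC removal 0 of the 10 were called, against 19.2%. IKBKE, a kinase that activates interferon-inducing factors, averaged 1.34 ± 0.538 FPKM in MK801 libraries, 3.37 ± 0.622 FPKM in invasive libraries and 1.12 ± 0.576 FPKM in core libraries (SD, n = 3 each). Its invasive minus core difference was 1.07 (SE 0.273, adjusted p 0.0973), and 0.46 with the GC trend removed (adjusted p 0.170 when the control libraries were then fitted alone). TBK1, the related kinase, averaged 1.32 ± 1.27 FPKM in MK801 and 3.79 ± 1.89 FPKM in core libraries, and the DNA sensor IFI16 averaged 18.0 ± 11.9 FPKM in MK801 and 33.3 ± 10.3 FPKM in core libraries. TMEM173 (STING), the adaptor of DNA sensing, averaged 29.7 ± 17.5 FPKM in MK801 and 43.9 ± 20.0 FPKM in invasive libraries. The difference of TMEM173 was -0.65 (limma adjusted p 0.835), and -0.52 with the GC trend removed. MYD88, the adaptor of Toll-like receptors, averaged 21.1 ± 2.93 FPKM in invasive and 14.2 ± 1.16 FPKM in core libraries. Its difference was 0.54 (limma adjusted p 0.122), and 0.31 with the GC trend removed.

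Of the 11 brakes tested, SOCS3, an inhibitor of JAK kinases, stood at 55.6 ± 20.2 FPKM in MK801 libraries, 106 ± 13.0 FPKM in invasive libraries and 35.0 ± 7.55 FPKM in core libraries (SD, n = 3 each). Its invasive minus core difference was 1.58 (SE 0.309, adjusted p 0.0790), and it was 0.93 with the GC trend removed, with an adjusted p of 0.0156 when the control libraries were then fitted alone. In the fit of those 6 libraries 3 brakes rose and 2 fell in invasive libraries, against 52.2% of all tested genes called, and with the GC trend removed SOCS3 was the 1 brake called, against 19.2%. PTPN2, a phosphatase that switches off JAK1, averaged 1.40 ± 0.812 FPKM in MK801 libraries, 1.19 ± 0.698 FPKM in invasive libraries and 2.84 ± 0.643 FPKM in core libraries. Its MK801 minus core difference was -0.71 (limma adjusted p 0.235), and -0.15 with the GC trend removed. For invasive minus core it was -0.85 (adjusted p 0.110), and -0.23 with the GC trend removed. NLRX1, a mitochondrial inhibitor of RNA sensing, averaged 8.20 ± 4.31 FPKM in MK801 and 4.04 ± 0.736 FPKM in core libraries, and NLRC5, a regulator of MHC class I genes, averaged 1.26 ± 0.125 FPKM in MK801 and 2.07 ± 0.593 FPKM in invasive libraries. The difference of NLRX1 was 0.76 (adjusted p 0.235), and 0.20 with the GC trend removed. That of NLRC5 was -0.42 (adjusted p 0.715), and -0.29 with the GC trend removed.

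Of the 37 other interferon-induced genes tested, limma called none, and in the 6 control libraries alone 10 rose and 10 fell in invasive libraries, against 52.2% of all tested genes called there. With the GC trend removed as well, 5 rose and 2 fell, so 7 of 37 were called against 19.2% of all tested genes. UBA7, the enzyme that activates ISG15, averaged 4.08 ± 1.96 FPKM in MK801 libraries, 8.76 ± 1.82 FPKM in invasive libraries and 2.52 ± 0.530 FPKM in core libraries (SD, n = 3 each). Its invasive minus core difference was 1.47 (SE 0.297, adjusted p 0.0794), and 0.87 with the GC trend removed (adjusted p 0.0136 when the control libraries were then fitted alone). MOV10, an RNA helicase that restricts retroelements, averaged 7.59 ± 2.74 FPKM in MK801 libraries, 12.6 ± 1.83 FPKM in invasive libraries and 5.76 ± 0.960 FPKM in core libraries. The invasive minus core difference of MOV10 was 1.01 (SE 0.260, adjusted p 0.0973), and 0.48 with the GC trend removed. SP100, a nuclear-body protein, averaged 3.58 ± 1.51 FPKM in MK801 and 6.53 ± 1.53 FPKM in core libraries, and NT5C3A, a nucleotidase, averaged 5.44 ± 2.70 FPKM in MK801 and 9.77 ± 1.40 FPKM in core libraries. Their MK801 minus core differences were -0.75 and -0.82 (limma adjusted p 0.235 for each), and -0.35 and -0.17 with the GC trend removed. The chemokines CXCL10 and CXCL11, usually among the strongest interferon targets, had 0 fragments in all 9 libraries.

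The label of the cells was checked against markers. VIM was at 897 to 2101 FPKM in the 9 libraries, and CD44, EGFR and SOX2 were present, whereas OLIG2 was at 0 and GFAP, NES, S100B, PROM1 and FABP7 stayed under 1 FPKM, so the astroglial markers that define much glioma tissue were near or at 0. Of 10 leukocyte and microglia markers 9 stayed under 1 FPKM, with TYROBP at 0 and PTPRC (CD45) at 0.0699 FPKM or less, and CSF1R was the exception at 1.19 to 5.74 FPKM. The leukocyte list summed to 2.69 to 5.17 FPKM in MK801 libraries, 4.33 to 6.01 in invasive libraries and 1.89 to 3.09 in core libraries. The fibroblast and pericyte list summed to 17.4 to 39.9 FPKM in MK801 libraries, 44.2 to 79.4 in invasive libraries and 12.9 to 19.7 in core libraries, led by PDGFRB, with PDPN at 0.0157 FPKM or less. The endothelial list summed to 1.34 to 1.60 FPKM in MK801 libraries, 1.79 to 5.34 in invasive libraries and 1.36 to 1.56 in core libraries, and the neuronal list to 2.99 to 5.90, 1.84 to 3.81 and 2.00 to 3.67 FPKM in the same order. The sums of the fibroblast, leukocyte and endothelial lists were each higher in every invasive than in every core library, as were the 4 membrane proteins. The fibroblast sum was mostly PDGFRB, which averaged 48.1 FPKM in invasive and 11.6 FPKM in core libraries. In that list RGS5, under 1 FPKM, went the other way, at 0.099 and 0.50 FPKM, and DCN overlapped. The part of these sums in the differences of the membrane proteins was not tested. In these bulk libraries fewer cells expressing a gene and less RNA per cell cannot be told apart.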

How the data were processed

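Polyadenylated RNA of GBM43 cells was sequenced in 3 MK801, 3 invasive and 3 core libraries, each matched to its column by the column name in its label, with 0 value columns left over. The authors deposited FPKM per gene with the gene length. HISAT2 2.0.5 and featureCounts 1.5.0-p3 are listed in the submitters' processing notes with the build GRCh38, and strand use is not given in the sources used here. FPKM times length was a whole multiple of 1 step for 100.0% of values above 0 (tolerance 0.01), which gave fragments per gene, 15.6 to 54.4 M per library. Coordinates and GC content came from GENCODE release 29. Genes at 1 FPKM or more in at least 3 libraries were analysed as log2(FPKM + 1) with limma 3.58.1 in R 4.3.3, with a mean-variance trend and 6 residual degrees of freedom, and p adjusted by Benjamini-Hochberg over all tested genes, threshold 0.05. The GC trend was a loess curve of span 0.3 per library, and limma-voom used fragments with library totals scaled by median of ratios. With 3 libraries a group an exact permutation test cannot reach p under 0.1, so none was run. The fit was also run on simulated data with independent noise and planted changes. Those data held no GC trend and no deviation shared by the genes of a library, so the run does not bear on how these affect the calls.

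The members and the lists of other genes were chosen with earlier results of these data known. All members were accounted for, those averaging at least 1 FPKM in a group are described by role, and full statistics are given for members whose groups did not overlap and that were among the 5 smallest p of a comparison. In each other list the 2 tested genes of smallest p per comparison are named, apart from an item not reported here, with IFNE, IFNAR2, CXCL10, CXCL11 and IFNB1 named after their values were seen. DDX58 was matched to its RefSeq promoter by its newer symbol. Alternatives were another pseudocount, no filter, median-of-ratios scaling, the replicate number as a block, GC removal, the 2 groups alone, voom and leaving out each library.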

Additional observations from a re-analysis of the deposited data

How the results depend on the processing

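The counts of called genes changed with the spread that was used. IFI35, called higher in MK801 than in core libraries without MK801 replicate 3 at a difference of 0.83, was at -0.05 with the GC trend removed and at -0.02 without MK801 replicate 1. IRF7, called higher in invasive than in core libraries at 0.39 with the control libraries alone and the replicate block, was called lower at -0.38 with GC removal added. For MK801 against invasive libraries 0 members were called under every alternative, and the count over all genes was 74 with the GC trend removed, 38 with the replicate block and GC removal together, and 3 with the 2 groups alone and GC removal. For invasive against core libraries the groups alone gave 16 members and 6179 genes, and with GC removal as well 3 members and 2278 genes. Whether the replicate numbers pair the libraries is not settled by the labels, and the correlations did not all pass 0.1. The correlation of same-numbered deviations was 0.41, 0.04 and 0.59 for MK801 and core, -0.15, 0.03 and 0.61 for MK801 and invasive, and -0.01, 0.24 and 0.44 for invasive and core, and not every library matched its own number best. With the replicate number as a block, 8 members (27.6%) and 2525 genes (21.3%) were called for invasive against core, and with GC removal added to the block 0 members and 43 genes. With the block in the 6 control libraries alone it was 20 members and 7134 genes, and with GC removal as well 6 members and 2713 genes. The block without GC removal called none for the other comparisons. Leaving out 1 library at a time gave 0 to 14 members and 0 to 5941 genes for MK801 against core, 0 to 0 members and 0 to 42 genes for MK801 against invasive, and 0 to 13 members and 0 to 4888 genes for invasive against core. The highest counts were without MK801 replicate 3, without MK801 replicate 1 and without MK801 replicate 3 in that order. Invasive against core called 11 members and 4675 genes without MK801 replicate 1 and 0 members and 1 gene without MK801 replicate 2. MK801 against core called 1 gene without invasive replicate 3, and MK801 against invasive called 1 gene without core replicate 2. Leaving out a library of the group not compared, the block in the control libraries alone, and voom with library totals scaled by median of ratios in place of the planned TMM scaling, were chosen after seeing the data. The cause was not tested. GC removal gave 6 of 29 members the other sign against core for both MK801 and invasive libraries, IFI35 among them for MK801 and IRF7 for invasive libraries, and median-of-ratios scaling gave 1 in each. Members under 1 FPKM rest on few fragments, and OAS2 had 12 to 238 fragments per library.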

Other observations

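Of the 23 tested members with a RefSeq promoter, 17 held the interferon response letters described above and 6 did not. The median difference of invasive minus core was -0.38 in the 17 and 0.16 in the 6 on the log2 scale, and -0.11 and 0.22 with the GC trend removed. The median transcript GC content was 44.2% in the 17 and 49.2% in the 6. The median difference of MK801 minus core was -0.53 in the 17 and 0.05 in the 6, and -0.28 and -0.04 with the GC trend removed. These are descriptions with no test.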
